A study of Homo sapiens with 3 samples.

Results

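The genes of the translation initiation factors (EIF1 to EIF6) and elongation factors (EEF1 and EEF2) were examined in exponentially growing C33A cells, a human cervical carcinoma line. Members were taken by gene symbol, and the kinases of eIF2 (EIF2AK genes) and the Argonaute genes once named EIF2C were left out. The symbol rule found 58 of 18417 measured genes. The level of 1 of them, the Y-linked EIF1AY, is not shown, which leaves 57 genes, 55 of them protein-coding. They include enzymes that modify the factors, a pseudogene (EEF1DP3) and a divergent transcript (EIF3J-DT), which the symbol rule takes in. RNA was isolated in triplicate from untreated cells grown in DMEM with 7% fetal bovine serum, and each of the 3 RNA samples was measured on its own Affymetrix Human Gene 1.0 ST array. Whether the samples came from separate cultures is not stated in the sources used here, so the SD between arrays may be technical. The arrays hold a single condition and a single cell line, so no treated or control group exists, and the line is a tumour-derived one that stands for no normal tissue. With 3 arrays, the SDs are themselves imprecise.

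Protein synthesis starts when eIF2 brings the initiator tRNA, with GTP, to the small ribosomal subunit, which eIF1, eIF1A and eIF3 prepare for scanning. The eIF4F complex, made of the cap-binding protein eIF4E, the scaffold eIF4G and the helicase eIF4A, recruits the mRNA, and eIF5 and eIF5B finish initiation. In elongation eEF1A delivers the aminoacyl-tRNA, its exchange factors recycle it, and eEF2 moves the ribosome along the mRNA. Many mRNAs of this machinery begin with a C followed by a run of pyrimidines, called a terminal oligopyrimidine tract, which places their translation under mTOR control.

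RefSeq promoters (GRCh38.p14, 250 bases before to 50 after the annotated start) were found for 44 of the 57 genes. In 12 of them (27.3%) the first base of the transcript was C and at least 4 pyrimidines followed it, against 4.59% of the 14239 measured genes with a promoter and 4.04% of all 27305 promoters in the table. The 7 of these 12 genes that are also on the list of CHD8 target genes, described further on, are shown first, from 10 bases before the start to 20 bases from it, with the C and its pyrimidine run in capitals.
EEF1A1 (chr6:73521013-73521042, minus strand): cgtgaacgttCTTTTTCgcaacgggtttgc
EEF2 (chr19:3985444-3985473, minus strand): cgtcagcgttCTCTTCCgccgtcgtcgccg
EIF2A (chr3:150546777-150546806, plus strand): cgagcggtttCTCTTTCCgggacaacatgg
EIF2S3 (chrX:24054946-24054975, plus strand): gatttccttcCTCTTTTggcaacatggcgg
EIF3F (chr11:7987327-7987356, plus strand): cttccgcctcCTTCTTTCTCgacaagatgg
EIF4A2 (chr3:186783567-186783596, plus strand): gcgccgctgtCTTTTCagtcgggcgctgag
EIF4B (chr12:53006446-53006475, plus strand): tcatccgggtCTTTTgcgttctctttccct

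The other 5 genes with this start are not on that list, and EIF2S3B, an intronless relative of EIF2S3, has the same 20 bases from the start on.
EIF3D (chr22:36529147-36529176, minus strand): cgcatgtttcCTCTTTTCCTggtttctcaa
EIF3K (chr19:38619178-38619207, plus strand): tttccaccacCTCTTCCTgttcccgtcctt
EIF3M (chr11:32583821-32583850, plus strand): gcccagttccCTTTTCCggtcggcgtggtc
EIF2D (chr1:206612446-206612475, minus strand): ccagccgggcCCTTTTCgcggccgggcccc
EIF2S3B (chr12:10505880-10505909, plus strand): gactttcttcCTCTTTTggcaacatggcgg
By contrast, EEF1G, a target without the pattern by this definition, has an a at the annotated start and its pyrimidines 1 base further on.
EEF1G (chr11:62573872-62573901, minus strand): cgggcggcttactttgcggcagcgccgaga

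Translation factor genes were mostly at the upper end of transcript levels in C33A cells. Levels are log2 intensities normalized by the Robust Multichip Average method (RMA), averaged over the probe sets of a gene, and genes were ranked by the mean of the 3 arrays into 10 equal groups (deciles, 10 the highest) and into low, medium and high tertiles. In decile 10, which began at 9.83 log2, were 31 of the 57 genes (54.4%), against 10% of all genes. The high tertile, above 8.14 log2, held 47 (82.5%, against 33.33% of all genes by definition), the medium tertile 10 and the low tertile 0. The median over the translation factor genes was 10.10 log2, with an interquartile range of 8.27 to 11.16, while the median of all genes was 6.91, with a range of 5.18 to 8.68. Taken on each array, the median of the translation factor genes exceeded that of all genes by 3.19 ± 0.07 log2 (SD, n = 3 arrays). Probe sets differ in how strongly they bind their target, so the order of genes is an order of signals, and no test was made of it.

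The deposited values carry no detection call, so background was judged from 455 genes of 4 families (beta-defensins, keratin-associated proteins, and receptors for taste and odour), which are silent in most tissues. The level of 55 translation factor genes (96.5%) lay above 6.43 log2, the 95th percentile of these families, against 56.3% of all genes. The 2 genes below it were EIF4E and the pseudogene EEF1DP3. With the 99th percentile in its place, 48 of the 57 genes lay above. Among the 100 genes of highest level on the arrays were 6 translation factor genes, EEF1A1, EEF1G, EEF2, EIF1, EIF4G2 and EIF3A. On the arrays taken alone, decile 10 held 30, 31 and 31 of the translation factor genes, and 53 of the 57 genes had the same decile on every array. The other 4 (EEF1AKMT1, EEF1B2, EEF1D and EIF4E3) moved by 1 decile.

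Among the factors of start codon selection, EIF1, whose protein keeps the scanning ribosome from starting at a wrong codon, had the highest signal. Its levels were 12.71, 12.70 and 12.74 log2 on arrays 1, 2 and 3. Its paralog EIF1B was at 7.44, 7.62 and 7.50, so all 3 values of EIF1B lay below all those of EIF1. Within each array the difference was 5.20 ± 0.10 log2 (SD, n = 3). EIF1AX, the X-linked gene of eIF1A, gave 11.50, 11.31 and 11.41, while EIF1AD, which encodes a protein with an eIF1A-like domain, was at 8.27 ± 0.06 (SD, n = 3). None of these 4 genes is on the CHD8 target list, and none has the pyrimidine start.

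The 3 subunits of eIF2, which carries the initiator tRNA, were all in decile 10. EIF2S3, the gamma subunit that binds GTP, was the highest of the eIF2 and eIF2B genes at 12.05, 12.03 and 11.97 log2, EIF2S1 (alpha), the subunit phosphorylated under stress, was at 10.78 ± 0.07 (SD, n = 3) and EIF2S2 (beta) at 10.22 ± 0.03 (SD, n = 3). EIF5, which activates GTP hydrolysis by eIF2, was at 10.84 ± 0.01 (SD, n = 3). The 5 subunit genes of eIF2B, the exchange factor that reloads eIF2 with GTP, were spread more widely. EIF2B1 and EIF2B2 had levels of 10.51 ± 0.05 and 10.01 ± 0.07 (SD, n = 3), both in decile 10. The catalytic subunit EIF2B5 was at 8.06, 8.31 and 8.21 log2, and its partner EIF2B3 at 8.25 ± 0.03 (SD, n = 3), both in decile 7. EIF2B4 lay between them at 8.96 ± 0.01 (SD, n = 3).

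EIF2S3B, which matched EIF2S3 in 28 of the 30 bases printed above, was at 7.33, 7.43 and 7.09 log2, below EIF2S3 by 4.74 ± 0.14 on each array (SD, n = 3). Carry-over of the EIF2S3 transcript to the EIF2S3B probe set was not tested. EIF2D, which can place the initiator tRNA without eIF2, was the lowest of this group, with 7.02, 7.04 and 6.93 log2. EIF2A, which despite its name is not a subunit of eIF2, was at 9.28 ± 0.04 (SD, n = 3).

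The eIF3 complex, the largest of the initiation factors, was high throughout. Of 12 subunit genes measured, 11 were in decile 10 and all 12 in the high tertile, with a median of 10.88 log2. EIF3A, the largest scaffold subunit, was the highest at 12.06, 12.05 and 12.12, followed by EIF3L at 11.71 ± 0.03 and EIF3M at 11.66 ± 0.06 (SD, n = 3). EIF3F, with 9.58, 9.56 and 9.61, was the lowest and was in decile 9, but its value is the mean of probe sets that disagree, as given below. EIF3J, a loosely bound subunit, was at 10.10 ± 0.08 (SD, n = 3). EIF3J-DT, a long non-coding RNA transcribed away from EIF3J, gave 8.07, 8.30 and 8.15 log2, all below the 3 values of EIF3J. EIF3C was found only on probe sets that also carry other symbols and is not described here.

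Of the 10 eIF4 genes 4 were in decile 10 and 7 in the high tertile. EIF4G2, a relative of the scaffold eIF4G that lacks the site for eIF4E, had the highest signal of them, with 12.37, 12.39 and 12.38 log2. The scaffold EIF4G1 was lower at 11.07, 10.98 and 10.98, and EIF4G1 minus EIF4G2 was -1.37 ± 0.06 within an array (SD, n = 3). Both stood in decile 10, with no overlap between them. The helicase cofactor EIF4H, at 11.56, 11.56 and 11.56, and EIF4A3, the helicase of the exon junction complex, at 11.06, 11.06 and 11.02, were in decile 10 as well. EIF4A2, a helicase of eIF4F, was at 9.14, 9.34 and 9.34, and EIF4B, which stimulates the helicase, at 9.77, 9.59 and 9.58. Both values are means of probe sets that disagree, and the highest probe sets were at 11.18 for EIF4A2 and 11.26 for EIF4B.

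EIF4E, which binds the mRNA cap, was not above background, with signals of 6.01, 5.79 and 5.64 log2 on arrays 1, 2 and 3, all below the 6.43 of the silent families. It has a single probe set, so a low transcript level cannot be told apart from a weak probe set. Differences of EIF4E from its relatives EIF4E1B, EIF4E2 and EIF4E3 are drawn in the plot of related genes, but no order is read from them. These relatives were above 6.43 on every array, but by mean level EIF4E1B and EIF4E3 were not above the 99th percentile of the silent families. EIF4E2, which binds the cap without joining eIF4G, was at 9.21, 9.25 and 9.18. EIF4E3 was at 7.71, 7.69 and 7.59, and EIF4E1B, known from oocytes, at 7.02, 7.11 and 7.23. The repressors of eIF4E, which compete with eIF4G for it, were in the high tertile. EIF4EBP2 gave 10.83, 10.95 and 10.80, and EIF4EBP1 gave 9.32, 9.39 and 9.48. The difference of EIF4EBP1 minus EIF4EBP2 was -1.46 ± 0.13 (SD, n = 3). EIF4ENIF1, which carries eIF4E into the nucleus, was at 8.65, 8.68 and 8.71.

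Both factors that act on subunit joining were in decile 10. EIF6, which keeps free large subunits from joining, was at 11.34, 11.29 and 11.32 log2, and the GTPase EIF5B, which joins the subunits, at 10.90, 10.72 and 10.75. EIF5A2, the less widely expressed of the hypusine-bearing factors, was at 6.98, 6.93 and 7.00, near the median of all genes. EIF5A is carried only by probe sets with several symbols, so the pair could not be compared.

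EEF1A1, which brings aminoacyl-tRNA to the ribosome, had the highest level of all 18417 genes, at 13.83, 13.76 and 13.73 log2. EEF1A2, its paralog known from muscle and neurons, was in decile 10 too, at 10.43, 10.05 and 10.20, and was lower than EEF1A1 by 3.54 ± 0.15 within an array (SD, n = 3), with no overlap. EEF1A1 has many pseudogene copies in the genome, and its probe sets cannot be assigned to the gene or a copy from the annotation used here. The exchange complex of eEF1A was uneven. EEF1G was at 13.19 ± 0.01 (SD, n = 3), EEF1D at 9.77, 9.95 and 9.84, and EEF1B2 at 8.36, 8.33 and 8.38, the lowest of the eEF1 genes. EEF1B2 minus EEF1D was -1.50 ± 0.12 (SD, n = 3).

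EEF2, the translocase, was at 12.79, 12.74 and 12.74 log2. EEF2K, the kinase that inhibits it, was in the medium tertile at 7.90, 8.01 and 8.02, and EEF2KMT, a methyltransferase of eEF2, was at 8.87 ± 0.01 (SD, n = 3). The methyltransferases of eEF1A were lower than their substrate on every array. EEF1AKMT2 was at 8.47, 8.41 and 8.45, EEF1AKMT1 at 8.45, 8.14 and 8.08, and EEF1AKMT3 at 6.79, 6.82 and 6.81. The pseudogene EEF1DP3 gave 6.38, 6.35 and 6.28, below the bound of the silent families.

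**Figure D1:**
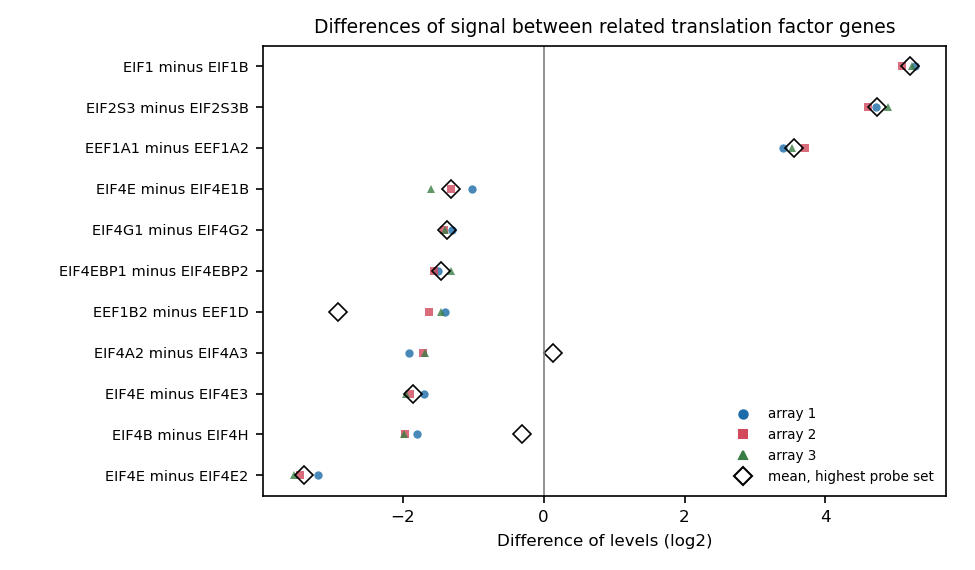
Difference of log2 levels (x axis) between related translation factor genes (rows), with 1 point for each of the 3 arrays and an open diamond for the mean difference when the highest probe set stands for each gene. EIF1 minus EIF1B is at 5.20, and the diamond of EIF4A2 minus EIF4A3 is on the other side of 0 from its points. All are differences between signals of different probe sets, and those of EIF4E rest on a signal below 6.43.

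For 7 genes the level rests on more than 1 probe set, and in 4 of them these differed by more than 2 log2. EIF4A2 was at 11.18 ± 0.01 (SD, n = 3) on a probe set that carries 8 transcript accessions and at 7.37 ± 0.24 on another that carries 1 of them. For EIF3F the values were 11.27 ± 0.01 and 7.90 ± 0.06 (SD, n = 3), although both probe sets list the same accession. EIF4B was at 11.26, 9.97 and 7.70 on its 3 probe sets, and EEF1D at 11.28 and 8.43. The lowest probe set of EIF4B and of EEF1D carries 1 accession, which the highest does not share. In EIF1AX the gap was 1.26 log2, while the probe sets of EEF1A1 and of EIF4H differed by 0.01 and 0.02. Over all 769 genes with several probe sets the median gap was 0.55, and 19.9% had a gap over 2.

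With the highest probe set in place of the mean, EIF3F, EIF4A2 and EIF4B moved from decile 9 to decile 10, and EIF4A2 minus EIF4A3 turned from -1.77 ± 0.12 to 0.13 ± 0.02 (SD, n = 3). EIF4B minus EIF4H changed from -1.92 to -0.31, and EEF1B2 minus EEF1D from -1.50 to -2.92. No order is therefore given for EIF4A2 and EIF4A3.

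**Figure D2:**
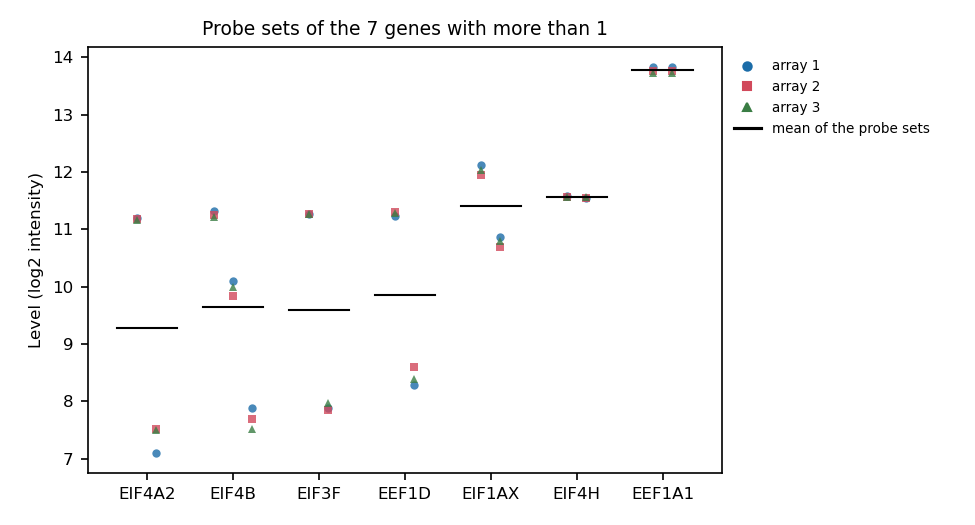
Levels (y axis, log2 intensity) on each probe set of the 7 translation factor genes with more than 1 (x axis), with 1 point for each of the 3 arrays and a line at the mean over the probe sets of a gene. The probe sets of EIF4A2, EIF4B, EIF3F and EEF1D lie more than 2 log2 apart, and those of EEF1A1 and EIF4H nearly coincide.

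The arrays were made to relate transcript level to binding by CHD8, a chromatin remodeller, and a gene was counted as a target when it stood on the list of genes with CHD8 enrichment at the promoter in both ChIP-chip experiments. Absence from this list does not show absence of CHD8. Targets made up 16 of the 57 translation factor genes (28.1%), against 9.63% of all measured genes and 21.2% of the genes in the high tertile. That tertile held 47 of the 57, so its share is not a matched background for all of them. Of the 31 in decile 10, 9 were targets (29.0%), against 30.1% of all genes in that decile, so at the highest levels the share was close to that of other genes. Below decile 10, 7 of 26 were targets, and the share of all genes below that decile was not computed. By role, 4 of 12 genes grouped with eIF2 and eIF2B were on the list (EIF2A, EIF2B1, EIF2S1 and EIF2S3). Beside the subunits, that group holds EIF2A, EIF2D, EIF5 and EIF2S3B. On the list were also 3 of 12 eIF3 genes (EIF3E, EIF3F and EIF3L) and 4 of 10 eIF4 genes (EIF4A2, EIF4B, EIF4E and EIF4G2). Of the 5 eEF1 genes, 3 were on it (EEF1A1, EEF1B2 and EEF1G). EEF2 and EEF1AKMT1 were the other targets.

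The median level of the 16 targets was 10.43 log2 and that of the other 41 genes 10.01, a difference of 0.42 ± 0.13 between the medians taken on each array (SD, n = 3). With the highest probe set of each gene the difference was 1.12. Over all genes the medians were 9.11 for targets and 6.58 for the others. The targets included EEF1A1, of highest signal, and EIF4E, whose signal was below the bound of the silent families. EIF1, EIF3A, EIF6 and EIF4H, all above 11 log2, are not on the list.

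The pyrimidine start was more frequent among the targets. Of the 13 targets with a RefSeq promoter, 7 had it (53.8%), and of the 31 other translation factor genes with a promoter 5 had it (16.1%). Put the other way, 7 of 12 genes with the pattern (58.3%) and 6 of 32 without it (18.8%) were on the list. Over all measured genes with a promoter the pattern was found in 7.01% of targets and 4.30% of the others. These counts are a description of a small group of related genes and were not tested. The level of the genes with the pattern had no settled direction. Their median was 9.99 log2 against 10.05 for those without it, and the difference turned from -0.07 to 1.21 with the highest probe set of each gene.

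The promoters were also searched on both strands for sequences of E2F (TTTCCCGC, TTTCGCGC, TTTGCCGC or TTTGGCGC) and of ETS factors (CCGGAAGT). E2F factors drive genes of the G1/S transition, and ETS factors are common at promoters of housekeeping genes. An E2F sequence was found in 2 of the 44 promoters, those of EEF1A1 and EIF4A3 (4.55%, against 4.52% of measured genes with a promoter). These were 1 of 13 targets (7.69%) and 1 of 31 other genes (3.23%). All measured genes with a promoter gave 6.35% of targets and 4.31% of the others. The paper reports enrichment of E2F sites in CHD8-bound promoters by a matrix search, a measure unlike these exact letters. The ETS sequence was found in 9 (20.5%, against 6.38% of measured genes with a promoter and 4.44% of all promoters), those of EEF1B2, EIF1AD, EIF2A, EIF2B1, EIF2B2, EIF3I, EIF4E2, EIF5A2 and EIF6. It was found in 3 of 13 targets (23.1%) and 6 of 31 other genes (19.4%), where all measured genes with a promoter gave 11% of targets and 5.84% of the others. With so few promoters no difference is read from these shares. A match is a description of the letters in this window and not a binding site.

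The arrays gave closely similar values for these genes. For the 57 genes the median SD between arrays was 0.05 log2, against 0.08 over all genes and 0.04 over the genes of decile 10, and 27 of the 57 exceeded the median of their own decile. The largest SD was that of EEF1AKMT1 (0.20), followed by EEF1A2 (0.19), EIF4E (0.19, at a signal below the bound of the silent families), EIF2S3B (0.18) and EIF3D (0.14). EIF3D was at 11.45, 11.17 and 11.26, an SD 3.27 times the median of its decile, and EEF1A2 reached 4.39 times. In EEF1AKMT1, EEF1A2, EIF4E and EIF3D array 1 was the highest, and in EIF2S3B array 3 was the lowest. Of the 57 genes, 26 (45.6%) were highest on array 1, against 39.2% of all genes and 45.5% of those in decile 10. At the other end, EIF4H, EIF4G2, EEF1G and EIF5 had SDs of at most 0.01.

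**Figure D3:**
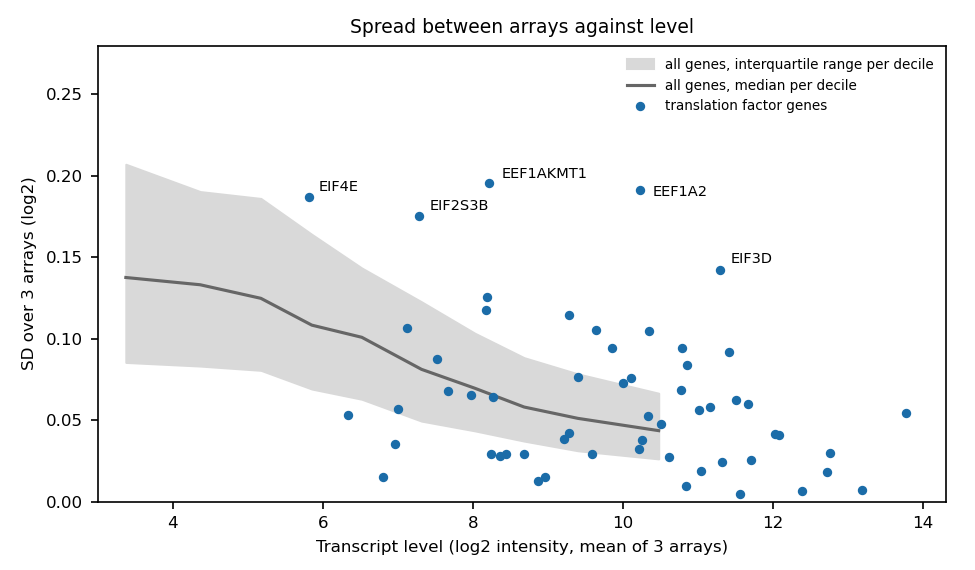
SD over the 3 arrays (y axis, log2) against transcript level (x axis, log2 intensity) for the 57 translation factor genes, with the median and interquartile range of all genes per decile drawn at the median level of the decile. The 5 genes of largest SD are named, from EEF1AKMT1 at 0.20 to EIF3D at 0.14.

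By RefSeq annotation, 13 snoRNA genes lie within translation factor genes, and 5 of them, in 4 hosts, were measured by a probe set of their own. SnoRNAs guide the modification of ribosomal RNA and are usually cut from introns of their host. SNORD37, within EEF2, was at 5.64, 5.90 and 6.08 log2, and SNORA19, within EIF3A, at 3.71, 3.83 and 3.99. SNORA28, within EIF5, gave 5.46, 5.81 and 5.71. SNORD51 and SNORA41, both within EEF1B2, were at 5.54 ± 0.24 and 4.68 ± 0.18 (SD, n = 3). All 5 lay below 6.43 on every array, while their hosts were between 8.36 and 12.76. The RNA was isolated with the RNeasy Mini Kit, and how well this preparation kept RNAs as short as snoRNAs was not tested. The low signals are therefore not read as low snoRNA levels.

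Other genes of translation, outside the symbol rule, also had high levels, with 37 of 44 measured in the high tertile, 15 in decile 10 and a median of 9.28 log2. Of the 8 genes of termination and recycling, 5 were in the high tertile. The 8 ranged from GSPT1, a release factor, at 11.43 ± 0.04 (SD, n = 3) to PELO, which rescues stalled ribosomes, with 3.40, 3.23 and 2.96. PELO was below the bound of the silent families, and a low transcript level was not told apart from a weak probe signal. The eIF2 kinases EIF2AK1, EIF2AK2 and EIF2AK4 were in decile 10, and EIF2AK3, the kinase of the endoplasmic reticulum, was at 7.76 ± 0.04 (SD, n = 3). All 9 genes of mTOR and MNK signalling to eIF4E were in the high tertile, among them LARP1, which binds terminal oligopyrimidine tracts, at 10.66 ± 0.03 and MTOR at 9.36 ± 0.06 (SD, n = 3). Among poly(A)-binding proteins and initiation helpers 6 of 7 were in the high tertile, with PABPC1 at 12.44 ± 0.03 (SD, n = 3). All 6 measured genes of hypusine, diphthamide and selenocysteine were in the high tertile but none in decile 10. Mitochondrial translation factors had 6 of 8 in the high tertile and a median of 8.73 log2, with TUFM at 11.02 ± 0.05 (SD, n = 3). Of the 44 genes, 9 were CHD8 targets (20.5%), against 9.63% of all genes and 21.2% of those in the high tertile.

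The 3 pairs of arrays had a Pearson's r of 0.993 to 0.994 over the probe sets. Of 5 epithelial markers examined, only KRT18, at 7.75 ± 0.11 log2 (SD, n = 3), lay above the bound of the silent families. KRT8, KRT19, EPCAM and CDH1 lay below it. None of 4 endothelial markers exceeded that bound, and 1 of 4 fibroblast markers (COL1A1, 7.24) and 1 of 3 leukocyte markers (PTPRC, 8.82) did. Their part in the levels given here was not tested.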

How the data were processed

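Total RNA isolated in triplicate from C33A cells was labelled as single-stranded DNA and hybridized to Affymetrix Human Gene 1.0 ST arrays. The authors extracted the intensities with the Affymetrix software, normalized them by RMA and used oneChannelGUI, with versions not given in the sources used here. Each deposited value is the log2 intensity of a probe set on 1 array. Arrays have no read depth, and precision is limited by their number.

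Of 33297 probe sets, 19460 carry 1 symbol in the platform annotation and were used, 1754 carry several and 12083 have none listed there. Symbols were updated by gene ID to RefSeq (GRCh38.p14), and probe sets of a gene were averaged on each array, giving 18417 genes. EIF3C, EIF3CL, EIF4A1, EIF4EBP3, EIF5A, EIF5AL1 and EEF1E1-BLOC1S5 were found only on probe sets with several symbols. EIF4G3 and EEF1E1 are not analysed here. The level of the Y-linked EIF1AY is not reported.

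CHD8 targets came from a list of 1965 genes, matched by accession (1907), symbol (40) or synonym (11), with 7 unmatched and 1773 measured. All samples form 1 group, so no test between groups was made, and values are means ± SD over the arrays, whose spread may be technical. The named genes are the highest and lowest of each role, the related pairs and the 5 of largest SD, beside others named where described. Members, gene lists and rules were chosen with earlier results of these data known, and the motifs, the roles of the eEF1A methyltransferases, EEF1DP3 and EIF3J-DT, and the current name EIF2S3B were set after the annotation had been seen. Alternatives left out each array, took the highest probe set, centred the arrays, kept genes with 1 probe set, left out the pseudogene, and changed the bound of the silent families, the ranking and the start pattern. The ranking into deciles and the median level were checked on simulated data with planted genes, and the other steps were not. Python 3.11.15, NumPy 2.4.6, pandas 2.3.3 and matplotlib 3.10.9 were used.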

Additional observations from a re-analysis of the deposited data

How the results depend on the processing

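Of 320 values under alternatives, for 75 results, 302 stayed within the spread between arrays or, for counts, within 1.5 times, 14 moved further and 4 reversed. Leaving out an array cannot move the mean over the 3 arrays by as much as their SD. A gene with 1 probe set keeps its level when the highest is taken. Many of the 302 could thus not come out otherwise, so the count does not measure how firm the results are. Of the 57 translation factor genes, 23 to 34 were in decile 10, 46 to 47 in the high tertile and 48 to 57 above the bound of the silent families. Among the 50 with 1 probe set these counts were 27, 40 and 48. With the highest probe set of each gene the median level was 10.33, the median SD 0.0495, the difference between targets and other genes 1.12, EIF4A2 minus EIF4A3 0.13 (reversed), EEF1B2 minus EEF1D -2.92 and EIF4B minus EIF4H -0.31. Levels then were 11.28 for EEF1D, 12.03 for EIF1AX, 11.27 for EIF3F, 11.18 for EIF4A2, 11.26 for EIF4B and 11.57 for EIF4H. The difference in level between genes with and without the pyrimidine start reversed to 1.21 with the highest probe set, to 0.99 with at least 6 pyrimidines and to 0.0958 with a start within 5 bases. The cause was not tested. Leaving out each array in turn, the median SD was 0.0382 to 0.0480, since an SD of 2 values has a lower median than one of 3. No paired analysis was possible because all samples belong to 1 group. Signals near the silent families limit EIF4E and EEF1DP3, which have only a low signal and no measured absence. With the 99th percentile as bound, EEF1AKMT3, EIF5A2, EIF2D, EIF4E1B, EIF2S3B, EIF1B and EIF4E3 were not above it either. The differences EIF1 minus EIF1B and EIF2S3 minus EIF2S3B each rest on 1 such low signal.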
